A study of Homo sapiens with 6 samples.

Results

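The genes described here make or remove the deoxynucleotides that DNA is copied from. They were chosen by symbol: TYMS, DUT and DTYMK of thymidylate synthesis, TK1 and DCK of salvage, RRM1, RRM2 and RRM2B of ribonucleotide reductase, and SAMHD1 of dNTP breakdown. All 9 were found among the 20442 genes of the deposited count table, and all 9 passed the low-count filter that left 12650 genes for testing. RNA was sequenced from T24, an established human bladder cancer line of tumour epithelial cells. One group had been treated for 24 h with si-KNSTRN, a small interfering RNA (siRNA) against the spindle gene KNSTRN, and the other for 24 h with the control siRNA si-NC, after 24 h of attachment in 6 cm dishes. Each group held 3 libraries of this 1 line, which are biological replicates per the design text. The sources used here name 1 si-KNSTRN treatment and do not give the sequence of either siRNA.

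Ribonucleotide reductase turns ribonucleotides into deoxyribonucleotides. Its large subunit RRM1 pairs with the small subunit RRM2 in cycling cells, or with the alternative, damage-inducible small subunit RRM2B. Thymidylate has a route of its own: dUTPase (DUT) yields dUMP, thymidylate synthase (TYMS) methylates it to dTMP with a folate cofactor, and thymidylate kinase (DTYMK) phosphorylates the product. Thymidine kinase 1 (TK1) and deoxycytidine kinase (DCK) recover nucleosides, and SAMHD1 cleaves dNTPs. TYMS, TK1 and RRM2 are classic genes of the G1/S transition, and TYMS is the target of fluoropyrimidine drugs.

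Libraries held 17870543 to 19717513 counted reads in si-KNSTRN cells and 16386799 to 20596074 in si-NC cells. KNSTRN itself had 13.6, 13.6 and 12.2 CPM (TMM-scaled counts relative to library size) in si-KNSTRN cells, against 38.3, 41.2 and 41.9 CPM in si-NC cells, a log2 fold change of -1.62 (SE 0.07, edgeR adjusted p = 1.71e-11). The line expressed the epithelial keratins KRT7, KRT8 and KRT18, whereas CDH1, KRT5 and UPK3A had no read and 9 of 16 bladder and epithelial markers stayed under 1 CPM in every library. Summed leukocyte markers came to 46.2 to 48.4 CPM in si-KNSTRN cells and 30.9 to 36.3 CPM in si-NC cells, most of it CD68, with CD3E, CD3D and MS4A1 at 0. Fibroblast and muscle markers summed to 28.9 to 31.9 CPM in si-KNSTRN cells and 40.9 to 42.3 CPM in si-NC cells, and endothelial markers to at most 1.77 CPM. Mitochondrial genes took 4.96, 4.70 and 4.48% of reads in si-KNSTRN libraries, all above the 4.41, 4.21 and 4.37% in si-NC libraries. The part of these marker and mitochondrial differences in the results was not tested. In bulk RNA, fewer cells in S phase and less RNA of a gene per cell cannot be told apart.

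After si-KNSTRN, transcripts of TYMS, TK1, DUT and the large reductase subunit RRM1 fell, while those of the small subunit RRM2 did not. TYMS was lowered 2.41-fold, TK1 1.65-fold, RRM1 1.35-fold and DUT 1.33-fold. DCK rose 1.20-fold and RRM2 1.09-fold, and RRM2B, DTYMK and SAMHD1 did not pass the test. Thus 4 of 9 genes were called lower and 2 higher at an edgeR adjusted p under 0.05, against 31.3% called lower and 31.2% called higher of all 12650 genes tested. With upper-quartile scaling the counts were 5 lower and 1 higher. The si-KNSTRN range lay wholly below the si-NC range for those 4 genes and wholly above it for those 2, beside 33.9% of all genes below and 33.4% above. The median log2 fold change of the 9 genes was -0.07, and that of all genes tested -0.01.

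**Figure D1:**
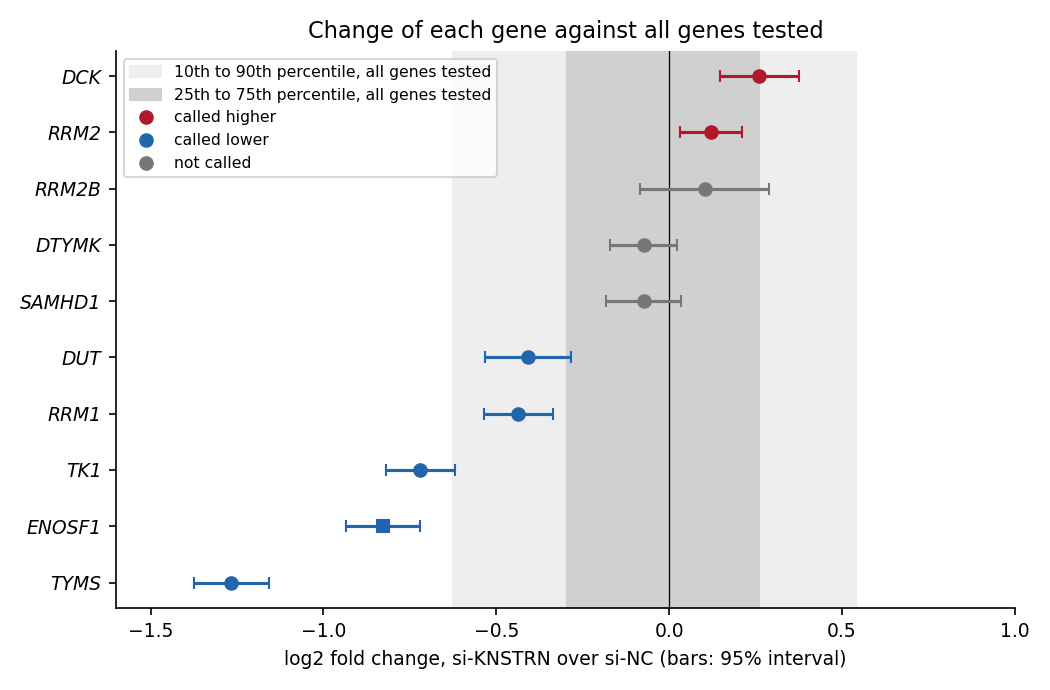
Log2 fold change of each gene in si-KNSTRN over si-NC cells (x axis) with its 95% interval (bars), for the 9 genes (circles) and ENOSF1, the neighbour of TYMS (square). Grey bands hold the 10th to 90th and 25th to 75th percentiles of all genes tested. TYMS, ENOSF1 and TK1 lie left of the 10th percentile, and the interval of RRM2B, DTYMK and SAMHD1 spans 0.

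TYMS (chr18:657653-673578, plus strand, GRCh38) had 91.9, 86.2 and 79.6 CPM in si-KNSTRN libraries 1 to 3, against 207, 205 and 208 CPM in si-NC libraries 1 to 3. Every si-KNSTRN library lay far below every si-NC library, with no overlap. The means were 85.9 ± 6.16 CPM in si-KNSTRN cells and 207 ± 1.30 CPM in si-NC cells (SD, n = 3 each), and TYMS fell by 58.4% (log2 fold change -1.27, SE 0.05, 95% interval -1.38 to -1.16, edgeR adjusted p = 7.02e-12). Of all genes tested, 1.65% had a log2 fold change this low or lower.

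TYMS overlaps ENOSF1, a gene of the opposite strand (chr18:662986-712630) that encodes a mitochondrial enolase-like protein. Of the 1662 bases of the principal TYMS transcript, 967 (58.2%) lie within an exon of some ENOSF1 transcript of GENCODE 29, although the principal transcripts of the pair share no exon base and end 280 bases apart. Whether reads were counted by strand is not given in the sources used here, so reads of the shared stretch cannot be assigned to one gene or the other. ENOSF1 had 40.4, 43.1 and 44.6 CPM in si-KNSTRN libraries, against 74.8, 75.6 and 77.1 CPM in si-NC libraries, again without overlap (log2 fold change -0.83, SE 0.05, edgeR adjusted p = 8.79e-10). The read ratio of TYMS to ENOSF1 was 2.27, 2.00 and 1.78 in si-KNSTRN libraries and 2.77, 2.72 and 2.70 in si-NC libraries. All 3 si-KNSTRN ratios were thus below all 3 si-NC ratios, a log2 difference of -0.44 (two-sided exact permutation p = 0.10, the smallest that 3 against 3 libraries allow; 0.15 adjusted over 3 ratios).

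**Figure D2:**
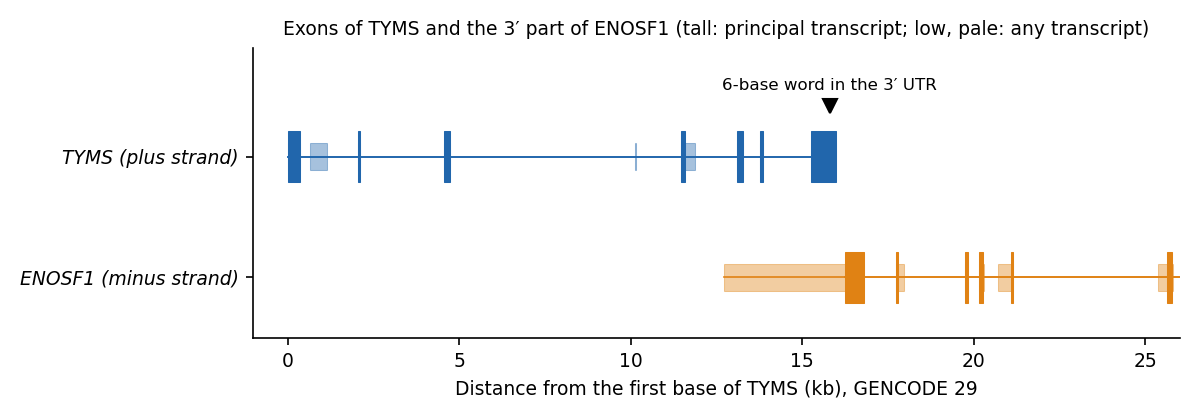
Exons of TYMS (top) and of the 3′ part of ENOSF1 (bottom) by distance in kb from the first base of TYMS, with tall boxes for the principal transcript and low, pale boxes for exons of any GENCODE 29 transcript. The triangle marks a 6-base word in the TYMS 3′ UTR, which lies within a pale ENOSF1 exon, whereas the tall boxes of the genes do not meet.

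The 3′ untranslated regions (3′ UTRs) were searched for the word TGAGTA, which earlier results of these same data had singled out. It stood in the 3′ UTR of 35.6% of 3766 genes called lower, 19.3% of 3763 called higher and 27.1% of 4424 not called, shares that restate that choice and support nothing further. Of the 9 genes, TYMS and RRM2 held it once each in the 3′ UTR of 1 transcript per gene, and the other genes did not. Of all 11953 tested genes searched, 27.3% held it. KNSTRN, the gene the siRNA was directed against, held the word once, at base 497 of its 951-base coding sequence. The 3 sites are shown with 10 bases on either side and the word in capitals, from GENCODE 29 transcripts.
TYMS 3′ UTR, base 404 of 581: ctgagggagcTGAGTAacaccatcga
RRM2 3′ UTR, base 695 of 2032: ctgccccctcTGAGTAgagtgttgtg
KNSTRN coding sequence: tacaaaccacTGAGTAagcaaaaatc
In TYMS and KNSTRN the word stands between the same bases, a C before it and an A after it, whereas in RRM2 a C stands before it and a G after it. How many of all genes hold the word with these flanking bases was not counted, so the likeness carries no weight here. RRM1 and DCK held the word once each in their coding sequence, at bases 662 and 770. Whether either strand of the siRNA pairs with these sites was not tested.

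DUT (chr15:48331095-48343373, plus strand), whose enzyme removes dUTP and supplies dUMP to thymidylate synthase, had 86.4, 84.3 and 75.9 CPM in si-KNSTRN libraries and 113, 114 and 101 CPM in si-NC libraries. The highest si-KNSTRN library was below the lowest si-NC library. DUT averaged 82.2 ± 5.56 CPM in si-KNSTRN cells and 109 ± 7.13 CPM in si-NC cells (SD, n = 3 each; log2 fold change -0.41, SE 0.06, edgeR adjusted p = 1.33e-05). DTYMK (chr2:241675747-241686815, minus strand), which phosphorylates dTMP, had 90.3, 95.1 and 91.0 CPM in si-KNSTRN libraries and 97.2, 99.6 and 94.1 CPM in si-NC libraries. Those ranges overlapped, and the change did not pass the test (log2 fold change -0.07, 95% interval -0.17 to 0.02, edgeR adjusted p = 0.176). With upper-quartile factors DTYMK was called lower (log2 fold change -0.12, edgeR adjusted p = 0.0389), and over the 14 other fits its adjusted p ran from 0.0389 to 0.515.

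TK1 (chr17:78174079-78187204, minus strand), the cytosolic kinase that salvages thymidine in cycling cells, had 139.9, 144 and 144 CPM in si-KNSTRN libraries, against 241, 242 and 222 CPM in si-NC libraries. The groups were far apart. TK1 fell by 39.3%, to 143 ± 2.46 CPM in si-KNSTRN cells, against 235 ± 11.2 CPM in si-NC cells (SD, n = 3 each; log2 fold change -0.72, SE 0.05, edgeR adjusted p = 1.85e-09). DCK (chr4:70993649-71030914, plus strand), which salvages deoxycytidine and activates nucleoside drugs such as cytarabine and gemcitabine, went the other way, with 52.1, 51.1 and 52.3 CPM in si-KNSTRN libraries and 43.9, 41.3 and 44.5 CPM in si-NC libraries. Every si-KNSTRN value lay above every si-NC value. DCK averaged 51.9 ± 0.634 CPM in si-KNSTRN cells and 43.2 ± 1.71 CPM in si-NC cells (SD, n = 3 each; log2 fold change 0.26, SE 0.05, edgeR adjusted p = 0.000528). Of the 50-base windows of its transcript, 5.62% recur in other genes, mainly MOB1B.

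RRM1 (chr11:4094685-4138932, plus strand), the large subunit with the catalytic and allosteric sites, had 193, 191 and 178 CPM in si-KNSTRN libraries, against 247, 253 and 261 CPM in si-NC libraries. The groups did not overlap, and RRM1 fell by 26.1%, to 187 ± 8.58 CPM in si-KNSTRN cells against 254 ± 6.72 CPM in si-NC cells (SD, n = 3 each; log2 fold change -0.44, SE 0.05, edgeR adjusted p = 6.02e-07). RRM2, the small subunit that carries the tyrosyl radical in S phase, had 319.7, 320.1 and 319.3 CPM in si-KNSTRN libraries and 290.0, 294 and 298 CPM in si-NC libraries. All si-KNSTRN values were slightly higher, with means of 319.7 ± 0.434 CPM in si-KNSTRN cells and 294 ± 3.78 CPM in si-NC cells (SD, n = 3 each). The log2 fold change was 0.12 (SE 0.04, 95% interval 0.03 to 0.21, edgeR adjusted p = 0.0188; 0.00412 to 0.119 over 14 other fits). This call was lost with upper-quartile factors (log2 fold change 0.08, edgeR adjusted p = 0.119) and without si-KNSTRN library 2, si-NC library 1 or si-NC library 2 (edgeR adjusted p = 0.0651, 0.0729 and 0.0542). Of the 50-base windows of the RRM2 transcript, 31.2% also occur in transcripts of another annotated gene, AC007240.1, or of further genes, so part of its reads could be split or lost in counting. RefSeq places RRM2 on the plus strand at chr2:10122568-10211010, and the GENCODE transcript used here ends at base 10131418.

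RRM2B (chr8:102204501-102238961, minus strand), the small subunit that serves non-cycling cells and DNA repair, had 15.1, 15.5 and 13.5 CPM in si-KNSTRN libraries and 14.5, 12.6 and 13.8 CPM in si-NC libraries. The ranges overlapped, and no change was called (log2 fold change 0.10, SE 0.09, 95% interval -0.08 to 0.29, edgeR adjusted p = 0.320). The read ratio of RRM2 to RRM2B was 21.8 ± 1.65 in si-KNSTRN cells and 21.6 ± 1.73 in si-NC cells (SD, n = 3 each), a log2 difference of 0.01 (two-sided exact permutation p = 0.90). The read ratio of RRM2 to RRM1 was 1.65, 1.67 and 1.80 in si-KNSTRN libraries, against 1.17, 1.16 and 1.14 in si-NC libraries. These ratios did not overlap, and the log2 difference of 0.56 had the smallest p this test allows with 3 libraries a group (two-sided exact permutation p = 0.10; 0.15 adjusted over 3 ratios).

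**Figure D3:**
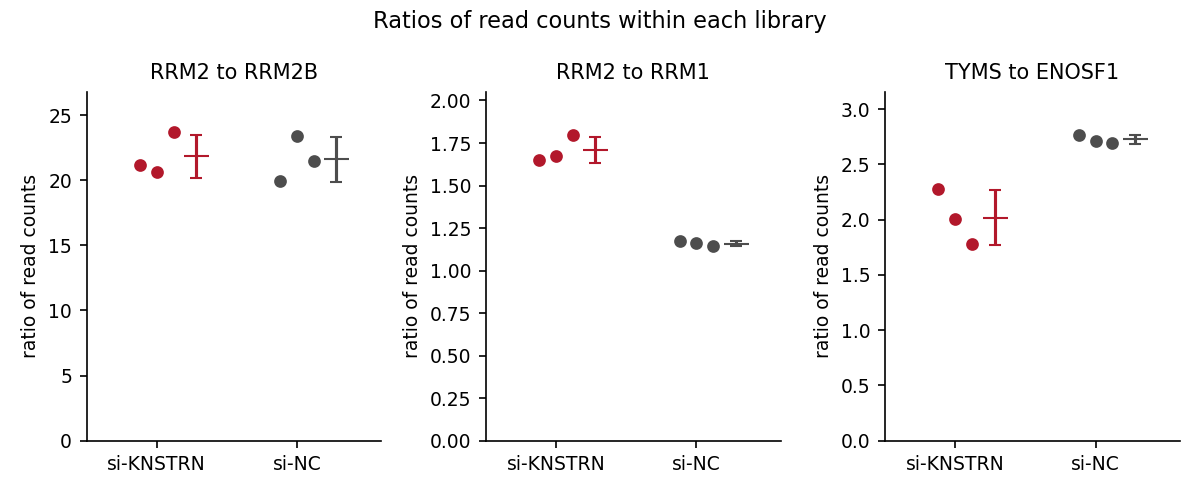
Ratio of read counts (y axis, from 0) within each library for RRM2 to RRM2B, RRM2 to RRM1 and TYMS to ENOSF1, si-KNSTRN left and si-NC right, with points for libraries and bars for mean ± SD. The RRM2 to RRM1 ratio was at least 1.65 in si-KNSTRN libraries and at most 1.17 in si-NC libraries, and the RRM2 to RRM2B ratios overlapped.

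SAMHD1 (chr20:36889773-36951708, minus strand), the dNTP triphosphohydrolase that limits dNTP pools outside S phase, had 71.6, 69.5 and 70.7 CPM in si-KNSTRN libraries and 70.2, 73.4 and 79.6 CPM in si-NC libraries. The groups overlapped, and the difference did not pass the test (log2 fold change -0.07, SE 0.05, 95% interval -0.18 to 0.04, edgeR adjusted p = 0.224).

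**Figure D4:**
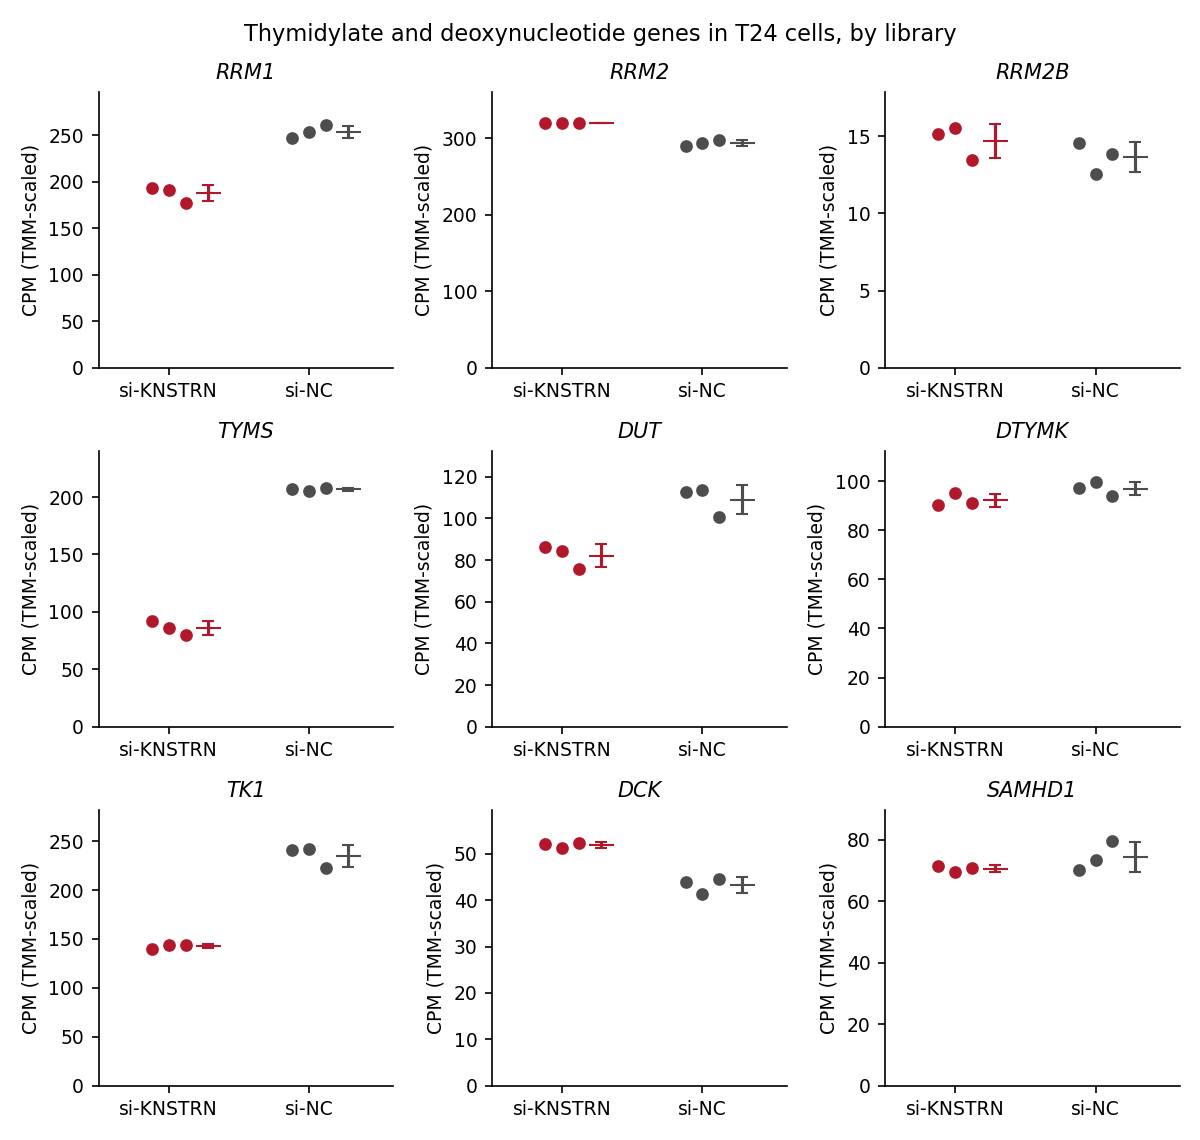
TMM-scaled CPM (y axis, from 0) of each of the 9 genes in every library, si-KNSTRN in red at left and si-NC in grey at right, with points for libraries and bars for mean ± SD. TYMS libraries sit between 79.6 and 91.9 CPM in si-KNSTRN cells and between 205 and 208 CPM in si-NC cells, while RRM2B, DTYMK and SAMHD1 overlap.

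Per transcript length, the order of levels differed between the groups. In TPM (counts divided by the length of 1 GENCODE 29 transcript and scaled to a common total), the order in si-KNSTRN cells was RRM2 (226 ± 3.57), TK1 (213 ± 6.72), DTYMK (181 ± 5.85), RRM1 (148 ± 4.45), TYMS (125 ± 6.94), DUT (92.7 ± 4.81), DCK (46.3 ± 1.10), SAMHD1 (32.3 ± 0.624) and RRM2B (7.22 ± 0.441; SD, n = 3). No neighbours in this order overlapped. In si-NC cells the order was TK1 (338 ± 10.2), TYMS (291 ± 7.17), RRM2 (200.4 ± 5.84), RRM1 (193 ± 8.17), DTYMK (184 ± 1.94), DUT (119 ± 5.67), DCK (37.3 ± 2.09), SAMHD1 (32.9 ± 2.65) and RRM2B (6.48 ± 0.534; SD, n = 3). There RRM2 overlapped RRM1, and DCK overlapped SAMHD1. TYMS ranked 5 in si-KNSTRN cells and 2 in si-NC cells. These levels take no account of the 58.2% of the TYMS transcript in ENOSF1 exons. Nor do they allow for the 31.2% of RRM2 windows shared with other genes. The places of TYMS and RRM2 in the order could shift if such reads were split or lost. RRM2B had the lowest level of the 9 genes in both groups.

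Since many of these genes share regulation at the G1/S transition, the 250 bases before each RefSeq start (GRCh38.p14) were searched on both strands for E2F-type words (TTCCCGC or TTCGCGC or TTGCCGC or TTGGCGC), for CCAAT and for CHR-type words (TTTGAA or TTCGAA). Promoter windows were matched for 8 of the 9 genes, all but RRM2B. Of these, 6 held an E2F-type word (21.6% of 10272 tested genes with a window did), 5 held CCAAT (41.6%) and 3 a CHR-type word (13.4%). A gene counted if any of its windows held the word. A window each is printed for TYMS and TK1, the most lowered pair, and for RRM2 and DCK, the pair called higher. The RRM2 call was lost in some of the other fits. Matches are in capitals, on the strand of the gene. GCGGGAA is TTCCCGC read on the other strand, as ATTGG is for CCAAT, and no word searched contains another.
TYMS: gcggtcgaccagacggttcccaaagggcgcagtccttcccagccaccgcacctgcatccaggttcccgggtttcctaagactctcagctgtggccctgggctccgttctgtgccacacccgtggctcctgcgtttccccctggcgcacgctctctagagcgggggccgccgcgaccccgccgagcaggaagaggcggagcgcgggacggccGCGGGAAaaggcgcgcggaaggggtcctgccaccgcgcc
TK1: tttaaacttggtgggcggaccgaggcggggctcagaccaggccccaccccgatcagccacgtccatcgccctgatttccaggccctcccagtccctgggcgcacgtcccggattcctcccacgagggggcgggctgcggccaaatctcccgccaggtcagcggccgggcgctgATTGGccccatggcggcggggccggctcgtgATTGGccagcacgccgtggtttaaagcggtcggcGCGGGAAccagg
RRM2: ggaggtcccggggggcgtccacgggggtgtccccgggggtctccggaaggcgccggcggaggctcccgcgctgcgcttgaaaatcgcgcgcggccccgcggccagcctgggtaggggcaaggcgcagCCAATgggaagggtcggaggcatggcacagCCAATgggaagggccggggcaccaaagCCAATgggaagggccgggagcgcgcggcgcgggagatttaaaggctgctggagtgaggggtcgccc
DCK: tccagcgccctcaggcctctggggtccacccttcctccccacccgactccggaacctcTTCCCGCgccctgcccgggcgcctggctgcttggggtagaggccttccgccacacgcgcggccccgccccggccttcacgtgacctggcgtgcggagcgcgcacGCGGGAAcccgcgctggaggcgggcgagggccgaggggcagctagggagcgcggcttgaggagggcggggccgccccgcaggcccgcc
They span chr18:657403-657652, chr17:78187053-78187302, chr2:10122489-10122738 and chr4:70993399-70993648. The E2F-type word began at position -39 from the start in TYMS, at -12 in TK1 and at -192 and -88 in DCK. TK1 has another window, chr17:78187205-78187454, at its upstream start, and that window held none of the words searched. TK1 held CCAAT at -77 and -46, and this RRM2 window held it at -123, -93 and -66. The printed RRM2 window had no E2F-type word, and its upstream alternative start had one at -192. Genes called lower and genes called higher both held E2F-type words. Among those called lower, RRM1 held one at -223, and DUT at -42 and -26 in its window chr15:48331947-48332196. The DUT windows at its other starts held none of the words searched. A match is a run of letters, not a site shown to be bound.

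Among 10695 other genes, all with a mean log2 CPM of 2 or more, the patterns nearest to TYMS over the 6 libraries (Euclidean distance of centred log2 CPM) were those of the kinetochore gene SPC24 (distance 0.0756), NFATC4 (0.0996) and APOL1 (0.10). Nearest to TK1 were LOXL2 (0.0546), IFI27L1 (0.0574) and the glycogen synthase gene GYS1 (0.0610), and nearest to RRM2 were EXT2 (0.0142), JPT1 (0.0261) and the focal adhesion kinase gene PTK2 (0.0281). Genes chosen by this distance must have nearly equal log2 fold changes. That SPC24 and TYMS both stood at -1.27 is therefore no separate result.

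Genes around the 9 enzymes did not share one direction, and the counts called in each list are to be read against the 31.2% higher and 31.3% lower of all genes tested. Folate and one-carbon genes, which supply the cofactor of thymidylate synthase, had 4 of 17 higher (23.5%) and 5 lower (29.4%; 6 and 5 when scaled by library size only), and their log2 fold changes had a median of -0.03. The mitochondrial folate dehydrogenase genes MTHFD2L and MTHFD2 rose, with log2 fold changes of 0.85 and 0.43, and the methionine synthase gene MTR fell by 0.34 (edgeR adjusted p = 5.56e-07, 3.60e-06 and 4.38e-05).

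Pyrimidine ring synthesis and nucleotide kinase genes had 5 of 12 tested higher (41.7%) and 2 lower (16.7%; 6 and 1 with library size alone), with a median of 0.11. CTPS1, the CTP synthase gene, averaged 160.0 ± 9.51 CPM in si-KNSTRN cells and 81.6 ± 5.40 CPM in si-NC cells (SD, n = 3 each; log2 fold change 0.97, edgeR adjusted p = 4.99e-10). The UMP-CMP kinase gene CMPK1 rose (log2 fold change 0.52), and UMPS, which completes UMP, fell by 0.57 (edgeR adjusted p = 5.46e-08 and 5.01e-07). CMPK2 and NME2 were not tested. NME2 was listed at 0 in all libraries, and 68.3% of its windows recur, mainly in the read-through gene NME1-NME2.

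Salvage and transport genes had 8 of 14 tested higher (57.1%) and 3 lower (21.4%), with a median of 0.27. The mitochondrial pyrimidine carrier gene SLC25A33 had 21.3 ± 1.34 CPM in si-KNSTRN cells and 7.80 ± 0.691 CPM in si-NC cells, and the uridine phosphorylase gene UPP1 had 46.1 ± 4.53 CPM in si-KNSTRN cells and 16.8 ± 2.31 CPM in si-NC cells (SD, n = 3 each). Both rose by a log2 fold change of 1.45 (edgeR adjusted p = 1.18e-09 and 1.53e-09), and the uridine-cytidine kinase gene UCK2 rose by 0.39. The concentrative nucleoside transporter genes SLC28A1, SLC28A2 and SLC28A3 did not pass the low-count filter. Pool-cleaning and breakdown genes had 5 of 17 tested higher (29.4%) and 3 lower (17.6%; 5 and 5 with upper-quartile factors), with a median of -0.04. Their NT5C3B, NUDT5 and DCTPP1, which hydrolyse nucleotides, rose by log2 fold changes of 0.53, 0.48 and 0.50 (edgeR adjusted p = 8.76e-08, 3.69e-07 and 1.08e-06).

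**Figure D5:**
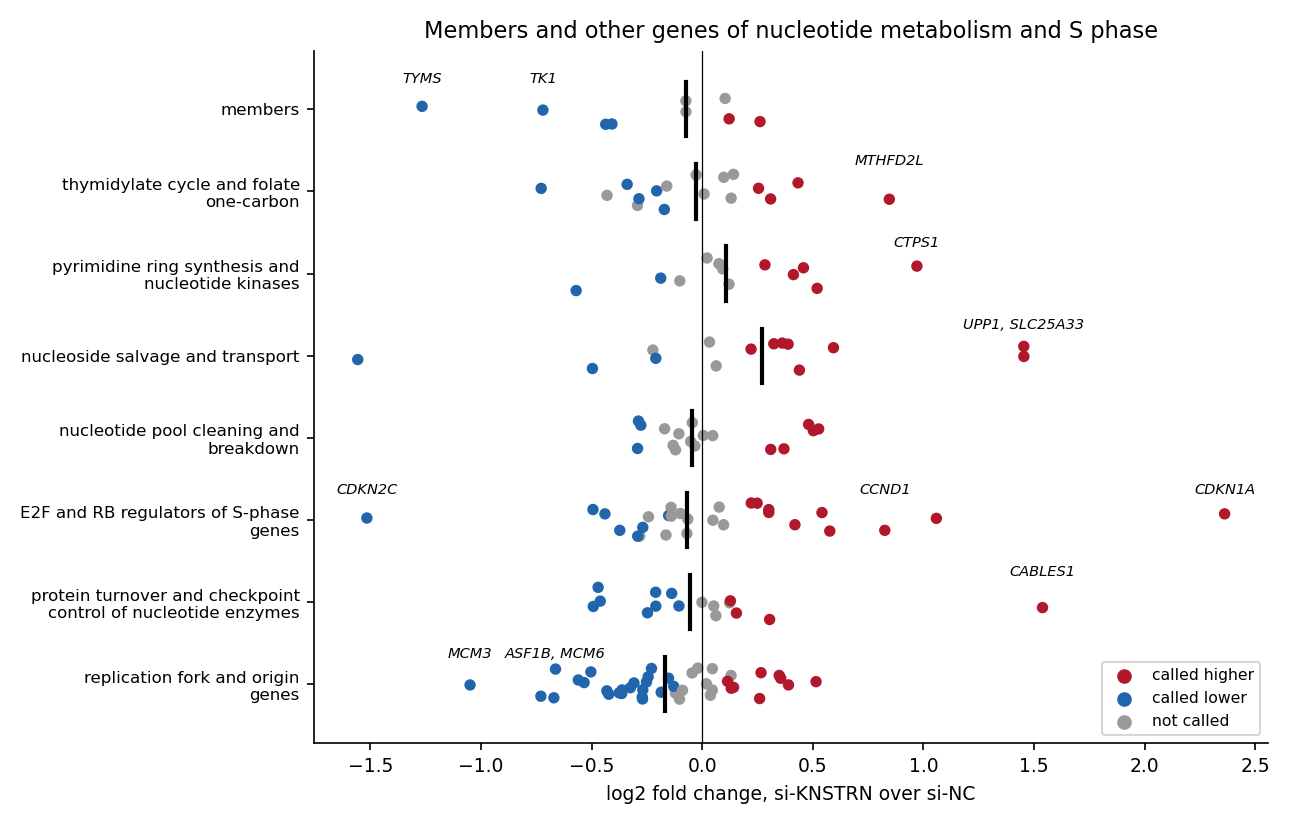
Log2 fold change in si-KNSTRN over si-NC cells (x axis) of each tested gene (points, jittered vertically) of the 9 members and of 7 lists of related genes, coloured by call, with the median as a black bar. Labels name the members and rule-chosen genes beyond 0.6 on either side; the median is 0.27 for salvage and transport and -0.17 for replication genes.

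Replication fork and origin genes had 23 of 42 lower (54.8%) and 9 higher (21.4%), with a median of -0.17. MCM3, a subunit of the replicative helicase, averaged 81.0 ± 2.33 CPM in si-KNSTRN cells and 168 ± 2.62 CPM in si-NC cells (SD, n = 3 each; log2 fold change -1.05, edgeR adjusted p = 1.18e-11). MCM6 and the histone chaperone gene ASF1B fell by 0.66 and 0.67. The other helicase genes MCM2, MCM4, MCM5 and MCM7, picked with their values in view, had log2 fold changes of -0.27, -0.27, -0.53 and -0.25 and were all called lower. The sliding clamp gene PCNA and the origin recognition gene ORC6, picked in the same way, had log2 fold changes of -0.43 and 0.51, and both passed the test.

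Among E2F and RB regulators, 10 of 28 passed the test as higher (35.7%) and 7 as lower (25%), shares near those of all genes, and the median was -0.07. The CDK inhibitor gene CDKN1A rose (log2 fold change 2.36), as did the cyclin D1 gene CCND1 (0.83), while the CDK4/6 inhibitor gene CDKN2C fell by 1.52 (edgeR adjusted p = 7.89e-12, 4.09e-09 and 4.53e-11). E2F1, an activator of G1/S genes, chosen after its value was seen, fell by 0.15 (edgeR adjusted p = 0.0186). Its relatives, chosen in the same way, were mixed. E2F3, E2F4 and E2F7 were called higher (log2 fold changes 0.22, 0.30 and 0.42, edgeR adjusted p = 0.0368, 6.08e-05 and 7.21e-07). E2F5 was called lower (-0.49, edgeR adjusted p = 0.000588). E2F2 (-0.14, 95% interval -0.62 to 0.34), E2F6 (-0.28) and E2F8 (-0.16) were not called (edgeR adjusted p = 0.609, 0.0994 and 0.0703). In the list of protein turnover and checkpoint genes, 4 of 16 were higher (25%) and 8 lower (50%), with a median of -0.05. The counts were 5 and 6 with library size alone, and 2 and 8 with upper-quartile factors. The number lower was 7 with limma-voom, and 6 with DESeq2, with the replicate block and at the threshold of 0.01. CABLES1 rose (log2 fold change 1.54), and the kinase genes WEE1 and ATM fell by 0.49 and 0.46. CCNF, whose cyclin F directs RRM2 for degradation and which was chosen after its value was seen, rose (log2 fold change 0.15, edgeR adjusted p = 0.0239). It did not pass the threshold of 0.01. Other genes of this list, picked with values in view, differed. CUL1 was called higher (log2 fold change 0.30), SKP1 was called lower (-0.11), and FZR1 was not called (-0.001, edgeR adjusted p = 0.984).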

How the data were processed

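RNA of T24 cells treated for 24 h was sequenced in 6 libraries, grouped by sample title. What the authors deposited are raw counts of reads for each gene. HISAT2 2.0.1, fastp 0.20.0, FastQC 0.11.5, featureCounts and build GRCh38 are named in the submitters' processing notes. Neither strand setting nor annotation version is given in the sources used here.

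The counts were filtered with filterByExpr (minimum count 10), scaled by TMM and tested over all 12650 genes by edgeR 4.0.16 (quasi-likelihood, two-sided, Benjamini-Hochberg, called under 0.05) in R 4.3.3. SEs and 95% intervals come from the same fit. A total of 3 reads equals 0.146 to 0.183 CPM, for counting error only. Replicate pairs differed by a chi-square per degree of freedom of 2.16 to 10.3, so none was merged. The largest values were those of si-KNSTRN library 3 with libraries 1 and 2 (10.3 and 6.98), against 2.60 between si-KNSTRN libraries 1 and 2. Ratios used exact permutation of the 6 libraries. TPM covers 19369 genes with a GENCODE 29 transcript (APPRIS principal, then longest). Sequences came from RefSeq (promoters) and GENCODE 29.

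The members, the gene lists and the word TGAGTA were chosen with earlier results of these data known. Named genes are the members, KNSTRN, ENOSF1, the 3 genes with the smallest p in each list and the 3 nearest patterns to RRM2, TYMS and TK1, with exceptions marked. Alternatives were RLE, upper-quartile and library-size scaling, DESeq2 1.42.0, limma-voom 3.58.1, other low-count filters, a replicate block, leaving out each library in turn and a threshold of 0.01.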

Additional observations from a re-analysis of the deposited data

How the results depend on the processing

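TYMS, TK1, RRM1, DUT and DCK kept their direction and call in all 14 other fits, with log2 fold changes of -1.32 to -1.21, -0.76 to -0.68, -0.48 to -0.40, -0.46 to -0.35 and 0.22 to 0.30. RRM2B and SAMHD1 were called in none of them. The number of the 9 genes called higher was 1 with upper-quartile factors and 1 at an adjusted p under 0.01, against 2, and 1 to 2 when each library was left out. RRM2 was the gene lost in each case. The number called lower was 4 or 5. The log2 difference of the RRM2 to RRM2B ratio was -0.0465 to 0.0734 with each library left out, and it changed sign without si-KNSTRN library 3 (-0.0465) and without si-NC library 1 (-0.0414). Same-numbered libraries did not deviate together (correlations of -0.06, 0.06 and -0.03). These values cannot show whether same-numbered dishes were handled in pairs. With the replicate block, edgeR called 3831 genes higher and 3857 lower, against 3946 and 3959, and 2 and 4 of the 9 genes. In the folate list 3 rather than 5 genes were lower with DESeq2, at the threshold of 0.01 and without si-KNSTRN library 2. In the pyrimidine list 1 rather than 2 were lower with DESeq2, library size alone, the threshold of 0.01 and without si-KNSTRN library 1 or 3. In the breakdown list 5 rather than 3 were lower with upper-quartile factors and without si-NC library 3. In the turnover list 2 rather than 4 were higher with upper-quartile factors, at 0.01 and without si-KNSTRN library 3, and 5 were higher and 6 lower with RLE factors. The causes were not tested. With 3 libraries a group, no ratio can reach an exact permutation p below 0.10.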
